A study of Mus musculus with 6 samples.

Results

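The alpha-arrestin genes Txnip, Arrdc1, Arrdc2, Arrdc3, Arrdc4 and Arrdc5 and the transcription factor genes Mlx, Mlxip and Mlxipl were examined in the brains of 7-day-old mice given ethanol. All 9 genes were found by symbol among the 19938 genes named on the array, each through 1 probeset that the platform annotation pairs with that gene alone. The set was chosen by the ethanol against saline values of these same arrays, on which Txnip, Arrdc3 and Arrdc4 were known to be high with ethanol. Ethanol differences of the 9 genes are therefore given as a description, with no p-value. Calls of these genes in the fit over all genes are given without any reading drawn from them. Ethanol pups were matched with saline littermates, per the series design text, but which pools hold them is not labelled, so the pools were fitted as unrelated. The mice were male pups of the inbred strain C57BL/6J. They were injected under the skin on postnatal day 7, the ethanol group with 2 doses of 2.5 g/kg, as a 20% solution in 0.15 M saline, given 2 h apart, and the control group with 0.15 M saline alone. Both groups were without the dam during the treatment, and brains were taken 4 h after the first injection. Each array held RNA of the whole brain pooled from 3 males of different litters, with 2 ethanol pools (arrays 2 and 4) and 4 saline pools (arrays 1, 3, 5 and 6) from 18 mice.

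Alpha-arrestins are adaptor proteins that share the fold of the beta-arrestins of receptor signalling. Most carry short proline-rich motifs that recruit ubiquitin ligases of the NEDD4 family to membrane proteins, which are then taken into the cell. Txnip also binds thioredoxin and restrains glucose uptake by driving glucose transporters into the cell. Transcription of Txnip and Arrdc4 is known to follow glucose: MondoA (encoded by Mlxip) and ChREBP (Mlxipl) sense glucose phosphates, pair with Mlx, and bind carbohydrate response elements in these promoters. MondoA is the form known from muscle and many other tissues, and ChREBP is best known from liver and fat.

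Promoters of the 3 alpha-arrestin genes with the higher ethanol values are shown because Mlx pairs act through elements of this kind. The windows run from 250 bases before to 50 bases after the start of the gene record, 5′ to 3′, from RefSeq on build GRCm38.p6. Capitals mark CACGTG, the E-box that Mlx pairs bind, and the CACG copies of the pattern CACGNNNNNNNCACG, a paired element searched on both strands.

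Txnip (chr3:96557707-96558006, plus strand): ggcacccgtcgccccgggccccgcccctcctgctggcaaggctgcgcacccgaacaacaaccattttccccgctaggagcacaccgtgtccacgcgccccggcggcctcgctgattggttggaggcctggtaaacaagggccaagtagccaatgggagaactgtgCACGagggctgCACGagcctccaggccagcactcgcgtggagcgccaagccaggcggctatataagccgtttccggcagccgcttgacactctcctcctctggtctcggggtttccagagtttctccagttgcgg
Arrdc3 (chr13:80883134-80883433, plus strand): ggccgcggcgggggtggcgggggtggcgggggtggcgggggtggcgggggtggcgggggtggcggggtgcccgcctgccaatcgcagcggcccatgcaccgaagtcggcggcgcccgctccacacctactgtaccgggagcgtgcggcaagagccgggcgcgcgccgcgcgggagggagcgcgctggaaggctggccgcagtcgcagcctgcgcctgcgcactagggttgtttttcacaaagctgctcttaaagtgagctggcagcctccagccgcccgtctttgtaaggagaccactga
Arrdc4 (chr7:68749189-68749488, minus strand): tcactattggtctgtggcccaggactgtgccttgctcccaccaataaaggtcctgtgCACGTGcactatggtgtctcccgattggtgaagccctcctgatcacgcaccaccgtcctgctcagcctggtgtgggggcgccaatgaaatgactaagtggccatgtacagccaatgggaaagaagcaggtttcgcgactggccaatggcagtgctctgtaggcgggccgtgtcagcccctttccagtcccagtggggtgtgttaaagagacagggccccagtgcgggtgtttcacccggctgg

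The Txnip window held 1 paired element, CACGAGGGCTGCACG, from base -85 to base -71 relative to the start. It also held the FoxO motif GTAAACA from -121 to -115, and 2 copies of CCAAT, the box bound by NF-Y, 1 on each side of the FoxO motif. The Arrdc4 window held CACGTG from -193 to -188 and 6 copies of CCAAT, counted on both strands. In the Arrdc3 window shown, neither CACGTG nor the paired element was present, and there was 1 CCAAT. The other 2 Arrdc3 windows, at further starts, likewise held neither. Among the remaining genes, Arrdc2 held 1 paired element (-143 to -129), Mlx held CACGTG (-40 to -35), and 1 of the 2 Mlxipl windows held CACGTG (-98 to -93). CCAAT had 3 copies each in Arrdc2 and Arrdc5, 2 each in Mlx and Mlxip, 1 in that Mlxipl window and 0 in Arrdc1. The box is thus not particular to the genes with higher ethanol values. Over all 32851 windows of this length, 7.15% held CACGTG, 0.615% the paired element, 3.65% GTAAACA and 37.4% CCAAT. The motifs can overlap in principle, and a match describes these letters only.

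**Figure D1:**
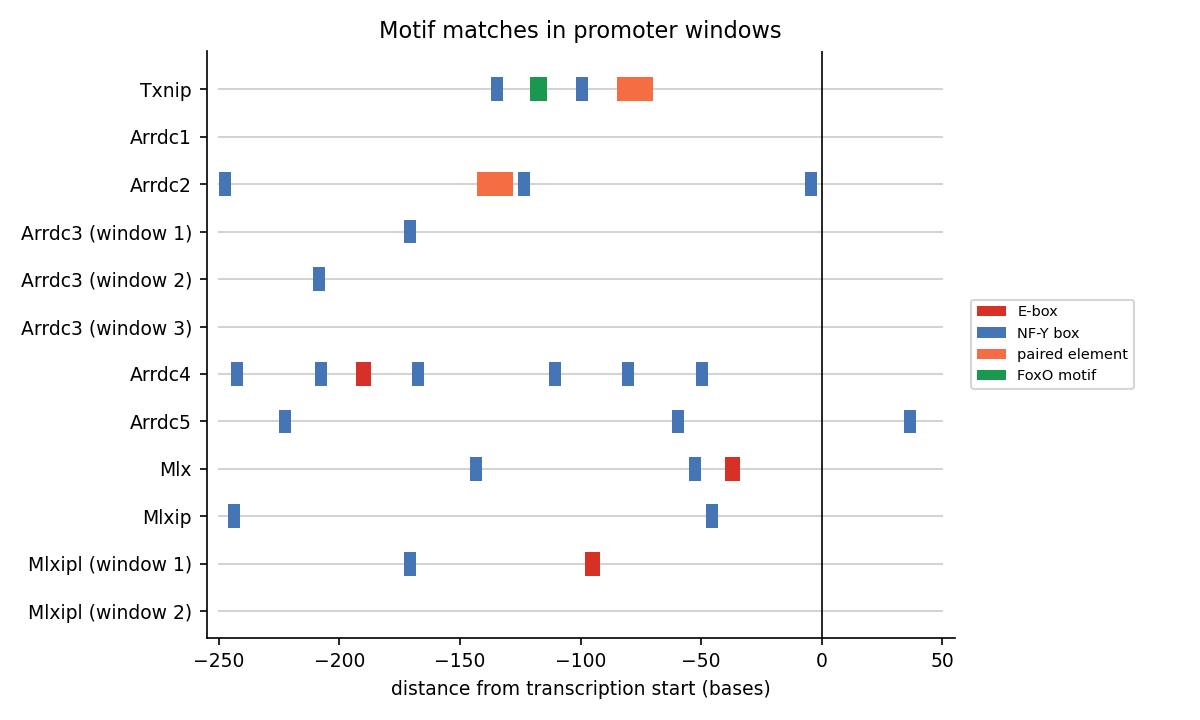
Motif matches in the promoter windows of the 9 genes, by distance in bases from the transcription start (vertical line at 0), with 1 grey line per window. The paired element lies at -85 to -71 in Txnip and at -143 to -129 in Arrdc2, and E-boxes lie in Arrdc4, Mlx and 1 window of Mlxipl.

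The arrays carried the signals of male brain. The Y-linked genes Uty, Kdm5d and Eif2s3y were at 8.81 or higher on all 6 arrays, and Xist was at 5.13 or lower. Levels are log2 values as deposited, and no level of 1 probeset is set against that of another gene. The background range was taken to end at 6.21, the 95th percentile of the mean levels of 1194 olfactory and vomeronasal receptor genes. Mean levels of neuron, astrocyte, oligodendrocyte lineage, microglia, endothelium and choroid plexus marker lists all lay above it. On the first principal component saline array 3 lay away from the rest, at 13.5. Ethanol arrays 2 and 4 lay at the opposite end, at -6.61 and -7.49. Saline arrays 1, 5 and 6 lay between, from -2.13 to 2.95. The mean of the 5 tested of 8 listed pituitary markers was 6.79 to 6.95 on saline arrays and 5.96 to 6.60 on ethanol arrays, with 0 past the limma threshold (lowest adjusted p 0.063) and 4 at an unadjusted p under 0.05. Gh (log2 difference -1.52) and Cga (-1.20) made up most of that gap. Fshb, Lhb and Ghrhr had -0.17, -0.02 and -0.16, and Prl, Pomc and Tshb were dim. The low values were mainly those of ethanol array 4. Gh was at 7.65 and 5.72 on ethanol arrays 2 and 4, beside 7.70 to 8.52 on saline arrays. Cga was at 7.19 and 6.06, beside 7.66 to 7.93. The 2 tested red blood cell markers had a mean of 7.54 to 8.10 on saline arrays and 7.42 to 7.84 on ethanol arrays. The part of pituitary tissue or blood in the results below was not tested. In RNA of a whole brain, a change in the number of cells of a type and in RNA per cell cannot be told apart.

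Txnip was high on both ethanol arrays. Its values were 9.14, 9.26, 9.72 and 9.54 on saline arrays 1, 3, 5 and 6, and 10.71 and 10.83 on ethanol arrays 2 and 4. The groups did not overlap, and the lower ethanol array lay 0.99 above the highest saline array, a gap wider than the whole saline range of 0.58. Means were 9.42 ± 0.26 (SD, n = 4) with saline and 10.77 ± 0.08 (SD, n = 2) with ethanol. The log2 difference, ethanol minus saline, was 1.35 ± 0.13 (SE), or 2.56-fold. By size this difference ranked 2 among the 14953 tested genes. High ranks by size of Txnip, Arrdc3 and Arrdc4 follow from the choice of the set, and nothing is read from them. Each SE of a difference in this report is limma's moderated one, which blends the gene's own variance with that of all tested genes. It is therefore not the SE that the SDs of the pools give, and can be smaller or larger. For Txnip, Arrdc3 and Arrdc4, whose saline pools spread widely, it is smaller than their own pools give. For Mlx it is larger.

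Arrdc3, an adaptor known for its part in energy use in fat, came next. On saline arrays 1, 3, 5 and 6 it was at 9.54, 9.52, 9.79 and 9.90, and on ethanol arrays 2 and 4 at 10.73 and 10.69. Here too the groups were apart, by 0.79, and the ethanol arrays differed by 0.04 between themselves. The log2 difference of 1.02 ± 0.10 (SE) corresponds to 2.03-fold and had rank 5 by size.

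Arrdc4, which like Txnip is induced by glucose, had a smaller difference. Its saline values were 8.19, 8.06, 8.38 and 8.34 in the same order, and both ethanol arrays were at 8.83. The ethanol arrays lay 0.45 above the highest saline array. The log2 difference was 0.59 ± 0.08 (SE), or 1.50-fold, with rank 11 by size.

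Arrdc1, which works with the ESCRT machinery in the release of vesicles from the plasma membrane, did not separate the groups. It was at 8.02, 7.86, 8.07 and 8.16 on saline arrays 1, 3, 5 and 6 and at 8.13 and 8.02 on ethanol arrays 2 and 4. Both ethanol values fell inside the saline range, and the log2 difference was 0.05 ± 0.08 (SE).

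Arrdc2 and Arrdc5 were dim: their means over the 6 arrays, 5.42 and 5.18, lay under the level of 5.55 below which the dimmest 25% of genes were left out of the test. Arrdc2 had saline values of 5.33 to 5.49 with a median of 5.41, and ethanol values of 5.38 and 5.48. Arrdc5 had saline values of 5.16 to 5.28 with a median of 5.18, and ethanol values of 5.09 and 5.18. All of these values lie in the background range, so the arrays do not show whether either gene differed between the groups.

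**Figure D2:**
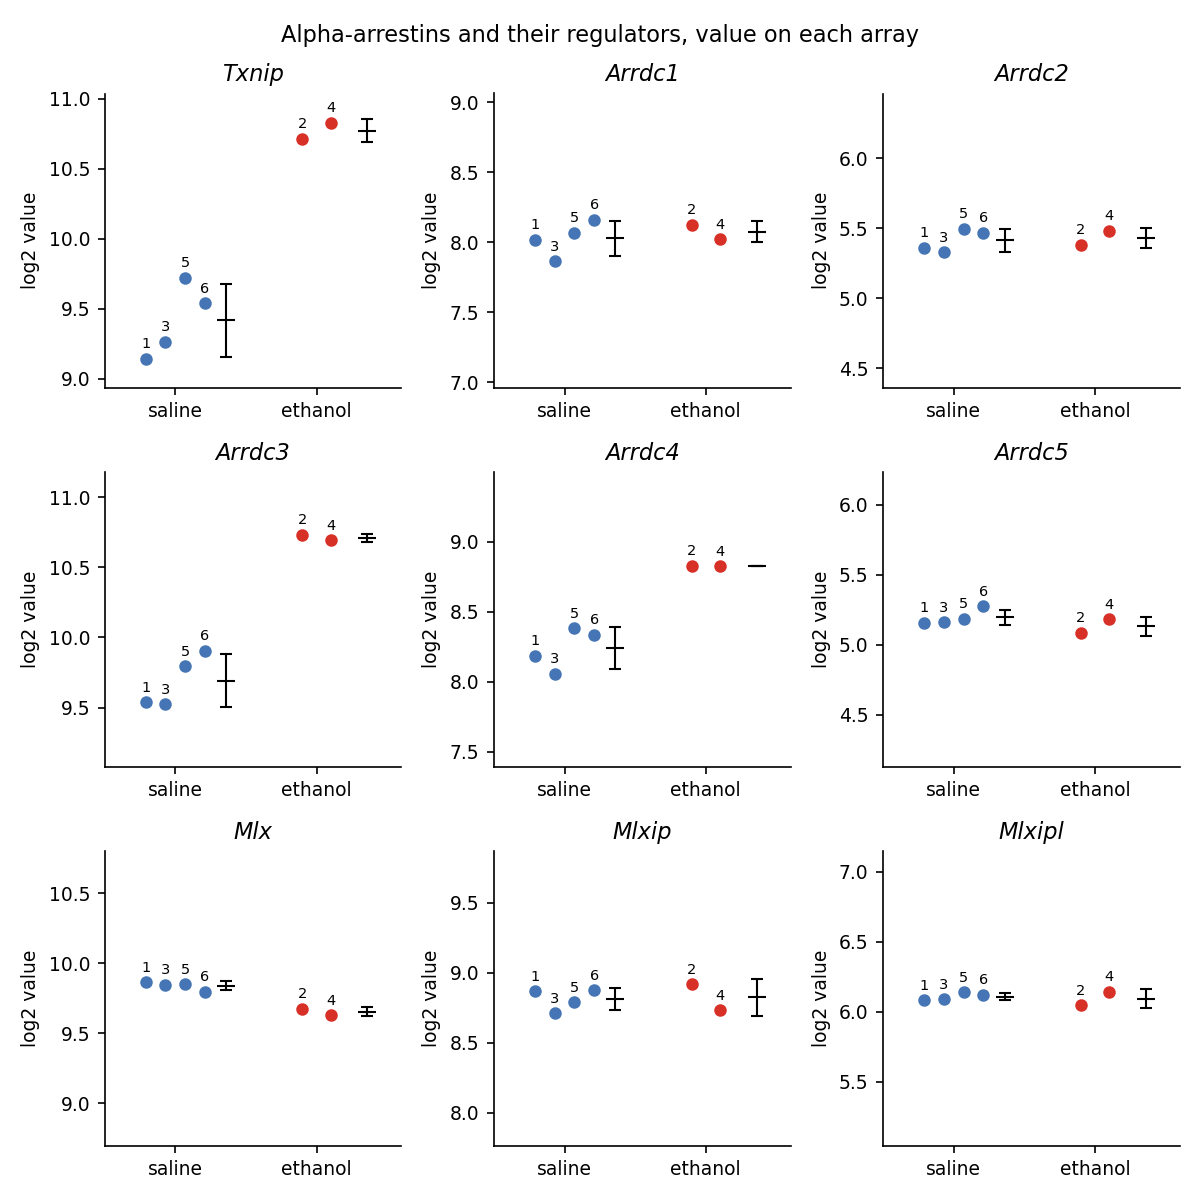
Log2 value of the 9 genes on each array, saline in blue and ethanol in red, numbered by array, with the group mean and SD in black. All panels span the same number of log2 units. Both ethanol arrays lie above all saline arrays for Txnip, Arrdc3 and Arrdc4 and below them for Mlx. Over all tested genes the shares are 7.68% above and 14.9% below.

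Among the regulators, Mlx was the gene whose groups stood apart, in the lower direction. Mlx encodes the shared partner without which MondoA and ChREBP do not bind DNA. It was at 9.86, 9.85, 9.85 and 9.79 on saline arrays 1, 3, 5 and 6 and at 9.68 and 9.63 on ethanol arrays 2 and 4. Both ethanol arrays were low, 0.12 under the lowest saline array, while the saline arrays spanned 0.07. The log2 difference was -0.19 ± 0.06 (SE), or 0.879 of the saline level, with rank 1066 by size. Both ethanol arrays lay below all saline arrays for 14.9% of tested genes, so the separation is not particular to Mlx.

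Mlxip, which encodes MondoA, was at 8.87, 8.71, 8.79 and 8.88 on saline arrays 1, 3, 5 and 6 and at 8.92 and 8.73 on ethanol arrays 2 and 4. The ethanol arrays differed from each other by more than the saline range, with array 2 above all saline arrays and array 4 among them. The log2 difference was 0.01 ± 0.07 (SE). Mlxipl, which encodes ChREBP, stayed in the background range on all 6 arrays, at 6.08 to 6.14 with saline and at 6.04 and 6.14 with ethanol. It was the tested gene of the set nearest to the limit for dim genes, and Arrdc2 lay just outside that limit.

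In the limma fit across all genes, 12 of 14953 tested genes, or 0.0803%, passed at an adjusted p of 0.05, 9 of them (0.0602%) higher and 3 (0.0201%) lower with ethanol. Of the 9 alpha-arrestin and regulator genes 7 were tested, and Txnip, Arrdc3 and Arrdc4 were among the 9 higher genes. Mlx and the other 3 tested genes were not. Since the first 3 genes are the reason for the choice of the set, nothing is read from that count, nor from its stability under other settings. Both ethanol arrays lay above all saline arrays for 7.68% of tested genes and below them for 14.9%. Of the 7 tested genes here, 3 lay above, 1 (Mlx) below, and 3 overlapped. The median log2 difference of the 7 was 0.05, and that of all tested genes -0.02. Centring of the arrays on the medians of all probesets gave 23 higher and 3 lower genes among 26. Arrdc4 did not pass without ethanol array 2 or without ethanol array 4, at log2 differences that stayed between 0.53 and 0.63 over all single-array omissions. Without ethanol array 4, the log2 differences were 1.30 for Txnip and 1.04 for Arrdc3. Without saline array 3, the array that stood apart, the log2 differences were 1.30 for Txnip, 0.97 for Arrdc3, 0.53 for Arrdc4 and -0.18 for Mlx. The near-zero differences changed sign with single arrays left out, from -0.01 to 0.10 for Arrdc1, from -0.08 to 0.11 for Mlxip and from -0.06 to 0.03 for Mlxipl.

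**Figure D3:**
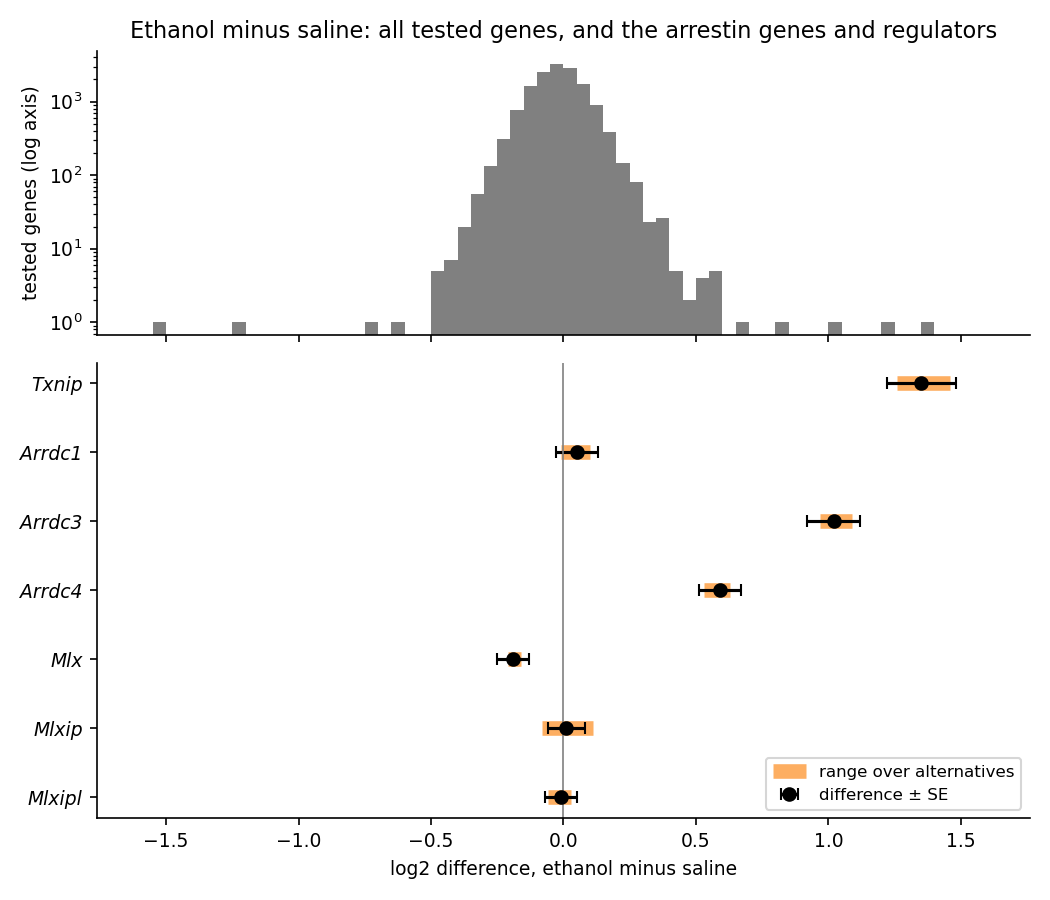
Log2 difference, ethanol minus saline, for all 14953 tested genes (histogram, log count axis) and for the 7 tested genes (points with SE). Orange bars show the range over 14 processing alternatives, or 13 for Mlxipl. Txnip, Arrdc3 and Arrdc4 lie at 1.35, 1.02 and 0.59, Mlx at -0.19, and Arrdc1, Mlxip and Mlxipl near 0.

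The spread among the 4 saline pools, which uses no ethanol array, was wide for the same 3 genes, and to a lesser degree for Arrdc1. The SD over saline arrays was 0.26 for Txnip, 0.19 for Arrdc3 and 0.15 for Arrdc4, where the median of tested genes was 0.07. These SDs were at or above those of 99.8%, 98.2% and 92.8% of tested genes, and that of Arrdc1, 0.12, of 86.1%. In each of the 3, saline arrays 1 and 3 were below the saline mean and arrays 5 and 6 above it. For Txnip the deviations were -0.27 and -0.15 on arrays 1 and 3 and 0.30 and 0.12 on arrays 5 and 6. For Arrdc3 they were -0.15 and -0.17, and 0.10 and 0.21. For Arrdc4 they were -0.05 and -0.18, and 0.14 and 0.10. Arrdc1, the dim Arrdc2 and the regulator gene Mlxipl had the same split in sign, though Arrdc1 was at -0.01 on array 1. Mlxipl, in the background range, had -0.03 and -0.02 on arrays 1 and 3, and 0.03 and 0.01 on arrays 5 and 6. The split is thus not particular to the alpha-arrestins, and its share over all tested genes was not counted. The medians of the arrays over all probesets split likewise by a smaller amount: centring changed arrays 1 and 3 by 0.0257 and 0.0142 and arrays 5 and 6 by -0.0361 and -0.0392, beside deviations of -0.05, -0.09, 0.08 and 0.06 for Arrdc2. Mlx was among the steadiest genes over saline pools, with an SD of 0.03, at or above that of 7.34% of tested genes. With 4 pools no test of shared spread was made, and the genes of 1 array share its RNA pool and labelling.

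**Figure D4:**
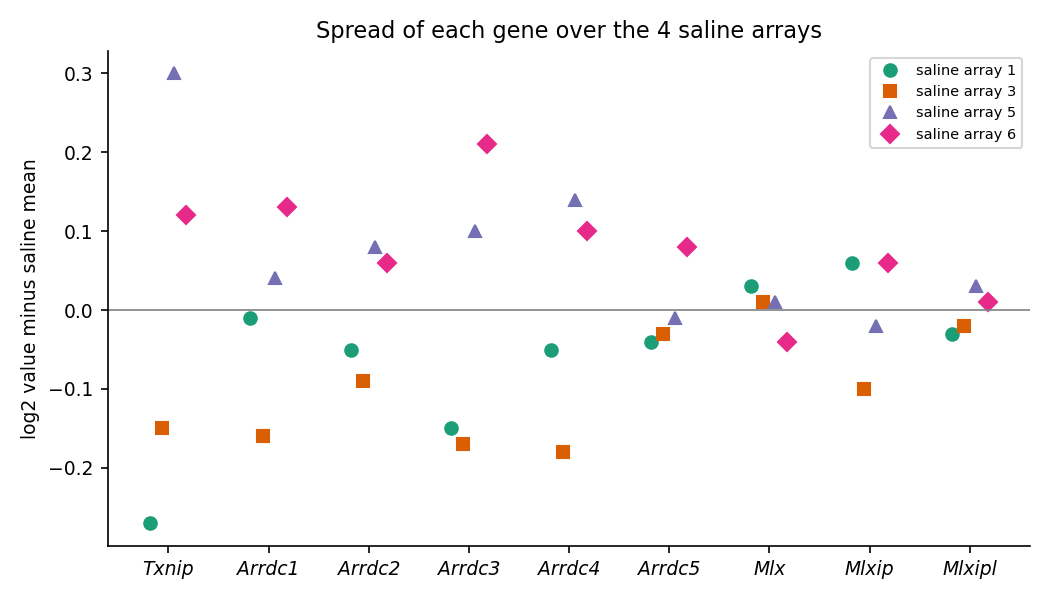
Deviation of each saline array from the mean of the 4 saline arrays (log2) for the 9 genes, with 1 symbol per array. Arrays 1 and 3 lie below 0 and arrays 5 and 6 above 0 for Txnip, Arrdc3 and Arrdc4, whereas all 4 arrays lie within 0.04 of the mean for Mlx.

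Likeness of pattern was measured as the root-mean-square difference between 2 genes' log2 values over the 6 arrays, each centred on the gene's own mean. From Txnip, this distance was 0.193 to Arrdc3 and 0.381 to Arrdc4, where the median over tested genes was 0.673. Jun, which encodes an AP-1 subunit, was nearer to Txnip than any gene of the set, at 0.090. Jun was at 8.94, 8.96, 9.41 and 9.40 on saline arrays 1, 3, 5 and 6 and at 10.30 and 10.49 on ethanol arrays 2 and 4, so that it repeated the low values of saline arrays 1 and 3. After Jun came Dusp1, a phosphatase of MAP kinases (0.333), Zfp975 (0.344), Rapgef6, an exchange factor for Rap GTPases (0.387), and the phagocytic receptor gene Mertk (0.390). The same 5 genes were nearest to Arrdc3 outside the set, led by Jun at 0.130 and Zfp975 at 0.167. This measure rests on 6 arrays, and most of the pattern it compares is the ethanol contrast. Genes with no ethanol difference lie near the median distance from Txnip, as Mlxip and Mlxipl did at 0.666. Txnip, Arrdc3 and Arrdc4 were chosen for their high ethanol values. Their distances under the median follow from that choice, and nothing is read from them.

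Genes that act with the alpha-arrestins were read from 7 lists. Of 83 listed genes 75 were tested, 6 were dim, and 2 were not analysed here. In limma 0 of the 75 passed over all genes, and 10 (13.3%) had an unadjusted p under 0.05, 5 higher and 5 lower. Of all tested genes 12.3% had such a p, 3.85% higher and 8.44% lower. Centring on the medians of all probesets let 1 pass, Foxo3.

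The ubiquitin ligases that alpha-arrestins recruit were close to level. All 11 NEDD4-family ligases and adaptors had log2 differences between -0.05 and 0.08, with a median of 0.01. By limma's unadjusted p, 0 of them were under 0.05. Smallest in p were the ligase genes Smurf1 (0.08 ± 0.08, SE) and Hecw2 (0.05 ± 0.07) and the adaptor gene Ndfip2 (-0.05 ± 0.06), with limma adjusted p of 0.737 or more, and Smurf1 and Hecw2 had 0.03 and 0.00 without saline array 3. The 7 tested genes of the other arrestin-fold families ranged from -0.05 to 0.13. Arrb2, a beta-arrestin, was at the upper end (0.13 ± 0.10, limma adjusted p = 0.633; 0.04 without saline array 3 and 0.08 without ethanol array 2), and the retromer-family genes Vps26a and Vps26c had -0.05 ± 0.07 and -0.05 ± 0.06.

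Of the thioredoxin system and the proteins that bind it or Txnip, 7 of 8 genes were tested, with a median of 0.01. Txnrd1 and Txnrd2, the reductases that recharge thioredoxin, had differences of -0.08 ± 0.07 and 0.03 ± 0.08 (limma adjusted p = 0.705 and 0.903). Ddit4, an inhibitor of mTORC1 whose product forms a complex with Txnip, was at 8.69, 8.55, 8.65 and 8.80 on saline arrays 1, 3, 5 and 6 and at 8.99 and 8.91 on ethanol arrays 2 and 4. Its groups did not overlap, and its difference of 0.28 ± 0.07 (SE) did not pass (limma adjusted p = 0.165).

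Among membrane cargo and ESCRT partners (9 of 10 tested, median -0.01), Slc2a1, the glucose transporter of the blood-brain barrier and a target of Txnip, was the leading gene. It was at 10.31, 10.07, 10.29 and 10.29 on saline arrays 1, 3, 5 and 6 and at 10.54 and 10.71 on ethanol arrays 2 and 4. Both ethanol arrays were above all saline arrays, with a difference of 0.38 ± 0.08 (SE), which did not pass (limma adjusted p = 0.0838). The integrin gene Itgb4 had -0.20 ± 0.08 and the thrombin receptor gene F2r 0.15 ± 0.08 (limma adjusted p = 0.344 and 0.476). Itgb4 had -0.12 without ethanol array 2, and F2r 0.09 without saline array 3.

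Known targets of MondoA and ChREBP outside the arrestin family held no gene that passed in limma, and 1 had an unadjusted p under 0.05. Of 15 tested genes, 4 lay above 0 and 11 below, with a median of -0.06 beside -0.02 for all tested genes, and a range of -0.16 to 0.11. Scd1, a fatty acid desaturase, was at 11.65 to 11.71 on the saline arrays and at 11.42 and 11.61 on ethanol arrays 2 and 4. Its difference was -0.16 ± 0.07 (SE, limma adjusted p = 0.362), and it was -0.06 when ethanol array 2 was left out. Acly, which makes cytosolic acetyl-CoA, had -0.10 ± 0.06, and Thrsp, a lipogenic gene, -0.14 ± 0.08 (limma adjusted p = 0.539 and 0.494), and they had -0.06 and -0.09 without ethanol array 4. Pklr, Hk2, Slc2a2 and Gckr were dim. Acacb (-0.11), Khk (-0.02) and Fgf21 (-0.10), all counted below 0, had mean levels in the background range. This list is made largely of liver and fat genes.

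The MAX and MXD network, which shares Mlx as a partner, went both ways, with 5 of 10 tested genes above 0 and a median of -0.02. Mxi1 and Mxd4, repressors that oppose MYC, had differences of 0.20 ± 0.07 and 0.14 ± 0.06, with both ethanol arrays above all saline arrays (limma adjusted p = 0.272 and 0.376). Myc had -0.36 ± 0.11, with both below (limma adjusted p = 0.232). None of the 3 passed in limma. Mxi1 had 0.13 without ethanol array 2.

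Other factors and kinases known to act on Txnip were all tested, 16 of 16, with a median of -0.01. Foxo3, a FoxO factor, was at 8.44, 8.20, 8.40 and 8.45 on saline arrays 1, 3, 5 and 6 and at 8.72 and 8.86 on ethanol arrays 2 and 4. Klf6, a zinc finger factor that represses Txnip, was at 9.79, 9.81, 9.77 and 9.86 on the saline arrays and at 9.46 and 9.52 on the ethanol arrays. Both genes separated the groups, as 22.6% of tested genes did, in opposite directions. Their differences of 0.42 ± 0.08 and -0.32 ± 0.06 (SE) did not pass (limma adjusted p = 0.0723 and 0.0708). Both passed with the dimmest 50% of genes left out, with array weights and with a mean-dependent variance prior. Neither passed with no filter, after quantile normalization or with the mean of probesets. With arrays centred on all probesets only Foxo3 passed. Foxo3 had 0.36 without saline array 3 and 0.35 without ethanol array 4, and Klf6 had -0.29 without ethanol array 2. The glucocorticoid receptor gene Nr3c1 had -0.15 ± 0.06 (limma adjusted p = 0.324).

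**Figure D5:**
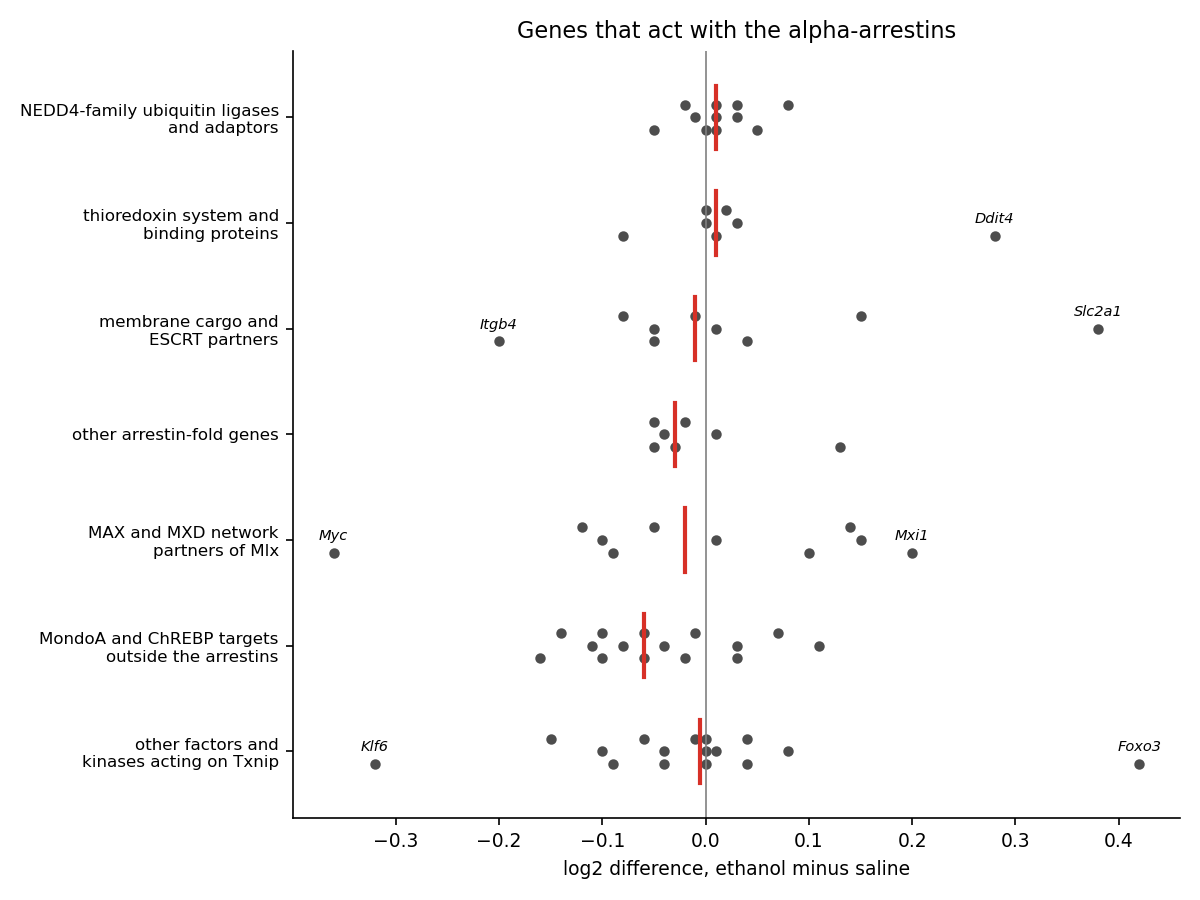
Log2 difference, ethanol minus saline, of the 75 tested genes in 7 lists (points, with the list median as a red line); genes beyond 0.19 in size are named. The NEDD4-family ligases lie between -0.05 and 0.08, and the outermost genes are Foxo3 at 0.42, Slc2a1 at 0.38, Myc at -0.36 and Klf6 at -0.32.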

How the data were processed

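RNA of 6 whole-brain pools was measured on Affymetrix whole-transcript arrays from 200 ng of labelled RNA each, per the labels' protocols. The authors deposited 1 value per probeset, read here as log2 from the range of 4.10 to 14.9, since no log base is stated. Partek 6.6 is named in the submitters' processing notes, with background correction, normalization and summarisation not given in the sources used here. A normalization across arrays can shift small differences that run one way.

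Of 35556 probesets, 21789 had 1 gene symbol, 1621 several and 12146 none in the platform annotation. By gene identifier 21698 were matched to a current gene record, whose symbol was then used. Each gene kept its brightest probeset, and the dimmest 25% of genes were left out. limma 3.58.1 in R 4.3.3 was fitted with treatment as the only term (4 residual degrees of freedom, prior 8.10), two-sided, with Benjamini-Hochberg adjustment over all tested genes at 0.05, and was tested on simulated data. Where nothing else is said, p-values and SEs are limma's. They combine each gene's spread between pools with a prior variance shared over all tested genes. The number of arrays limits the precision.

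The genes and lists were chosen with earlier results of these data known, and the motifs after the promoters were read. Named are all 9 genes, up to 3 genes per list by unadjusted p, and the 5 genes nearest to Txnip and to Arrdc3. Promoter windows of all 9 genes come from RefSeq, build GRCm38.p6. Genomic positions of the probesets are not given. Alternatives covered the filter, scaling, probeset, weights, variance prior and each array left out.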

Additional observations from a re-analysis of the deposited data

Results flagged for a closer look

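Of 35 named genes, 3 had 1 saline array far from the other 3, by Dixon's test at its 95% limit, which chance passes in about 1 of 20 groups. None of them is an alpha-arrestin or a regulator. Slc2a1 was at 10.07 on saline array 3, where the others lay at 10.29 to 10.31. Mxi1 was at 8.31 on saline array 3, against 8.44 to 8.47. Txnrd2 was at 6.89 on saline array 5, against 6.64 to 6.66.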

How the results depend on the processing

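There were 14 alternatives, of which 13 held Mlxipl. The log2 differences ranged from 1.26 to 1.46 for Txnip, 0.97 to 1.09 for Arrdc3, 0.53 to 0.63 for Arrdc4 and -0.21 to -0.16 for Mlx. They took both signs for Arrdc1 (-0.01 to 0.10), Mlxip (-0.08 to 0.11) and Mlxipl (-0.06 to 0.03). The filter settings and the variance prior change calls only and could not alter a gene's difference. Arrdc4 lost its call without either ethanol array; as the genes were chosen from this contrast, no support is drawn from calls that held. Genes past the threshold numbered 12 in the main fit, 52 with the dimmest 50% left out, 26 with arrays centred on all probesets, 23 after quantile normalization, 56 with array weights and 43 with a mean-dependent variance prior, and 4 to 16 when single arrays were left out. Only 4 passed without ethanol array 4. Centring on the tested genes, chosen after the data were seen, gave 8. Of the listed pathway genes, 0 passed in the main fit, 2 with the dimmest 50% left out (Foxo3, Klf6), 1 with arrays centred on all probesets (Foxo3), 2 with array weights (Foxo3, Klf6), 3 with the mean-dependent prior (these and Slc2a1) and 0 when single arrays were left out. Txnrd1 ranged from -0.16 to 0.00 and Vps26a from -0.18 to 0.08 over single arrays left out, and both changed sign without ethanol array 2. Apart from fewer genes or arrays in the fit, the cause was not tested. No gene of the set had a further probeset, so fits of further probesets gave no value and the mean of probesets could not alter these genes. With an ethanol array left out, the lone one is assumed to vary like the saline arrays. No paired analysis was possible because the groups share no replicate number. The 2 ethanol arrays limit every difference here.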
